A study of Mus musculus with 24 samples.

Results

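The genes described here are 10 members of the amino acid response that is controlled by the transcription factor ATF4, taken as the rows of the count and FPKM tables that carry the symbols Atf4, Atf5, Atf3, Ddit3, Nupr1, Trib3, Chac1, Asns, Psat1 and Phgdh. They are 10 of the 55421 genes listed. They fill 11 rows, because Ddit3 is listed under 2 identifiers, and 9 of the 10 members were among the 13847 genes that passed the filter on low counts and were tested. Phgdh did not pass it, and its reads are described separately.

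ATF4 is made when cells slow protein synthesis through phosphorylation of the initiation factor eIF2, which the kinases PERK, GCN2, PKR and HRI carry out in response to unfolded protein, amino acid shortage, viral RNA and haem or mitochondrial stress, and mTORC1 activity also raises ATF4 output. ATF4 then binds composite C/EBP-ATF response elements near genes for amino acid synthesis, amino acid import, tRNA charging and stress signalling. In liver the same program also drives the secreted hormone FGF21.

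RNA was sequenced from hepatocytes of C57BL/6J mice, males per the study's methods, isolated by 2-step liver perfusion, with 1 library per animal. ND+veh (n = 8) stayed on normal diet with vehicle. HFD+veh (n = 7) received vehicle from 4 months of age and a high-fat diet, with 60% of calories from fat, for 9 weeks from 18 months. HFD+eRapa (n = 9) received encapsulated rapamycin, an mTOR inhibitor, at 42 ppm in the food from 4 months and the same high-fat diet for the same 9 weeks. Every mouse was therefore old, and rapamycin was given before as well as during the high-fat diet. No group received rapamycin on normal diet, so an effect of rapamycin without the high-fat diet cannot be told apart from its effect on that diet.

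Libraries held 17739252 to 25945134 counted reads. All 11 hepatocyte markers in the tables were present in every library, at a summed 63894 to 176185 CPM (reads per 1000000, after TMM scaling of library size). Markers of other liver cells were present too and varied widely. The 12 macrophage markers summed to 51.7 to 1498 CPM in ND+veh, 189 to 5779.6 in HFD+veh and 18.4 to 1215 in HFD+eRapa. The 9 endothelial markers ranged from 80.6 to 478, 130.1 to 842 and 67.9 to 389 CPM, and the 10 stellate cell markers from 32 to 259.7, 39.1 to 555 and 22.9 to 110.5 CPM, in the same order of groups. Against HFD+veh, HFD+eRapa was lower for 9 of 12 tested macrophage markers, 9 of 9 endothelial and 9 of 9 stellate cell markers, beside 21.1% of all tested genes. Of these other cell types' markers, only the stellate marker Acta2 and some lymphocyte, neutrophil and cholangiocyte markers were at 0 in any library. ND+veh replicate 4 stood apart with low hepatocyte markers, and HFD+veh replicate 6 with the highest macrophage and endothelial sums, so results that rest on them are also given without them.

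The promoters of some members carry the letters of the C/EBP-ATF response element. In windows of 300 bases, from 250 before to 50 after the RefSeq start of each gene (GRCm38.p6), TGATGNAA was searched on both strands. It was present for 5 of the 10 members and for 4.51% of the 27025 gene symbols with a window. The 5 matches are shown because the element is the sequence that ATF4 binds with C/EBP proteins. Each window is 30 bases, written in the direction of transcription with the match in capitals, and a match on the opposite strand reads TTNCATCA.
Atf3, chr1:191183425-191183454, minus strand: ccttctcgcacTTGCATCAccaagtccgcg
Chac1, chr2:119351038-119351067, plus strand: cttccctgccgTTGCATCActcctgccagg
Trib3, chr2:152344028-152344057, minus strand: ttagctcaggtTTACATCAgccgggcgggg
Asns, chr6:7693214-7693243, minus strand: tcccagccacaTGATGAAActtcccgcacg
Nupr1, chr7:126625562-126625591, minus strand: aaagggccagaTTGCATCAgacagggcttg
The match began 110 bases before the start in Atf3 and in Nupr1, 193 before it in Chac1, 23 before it in Asns and 14 bases after it in Trib3. Atf4, Atf5, Ddit3, Psat1 and Phgdh held no match, which says only that these letters are not in these windows. The endoplasmic reticulum stress response element, through which ATF6 acts on chaperone genes, was searched on both strands too. It was in the window of no member, in 8 of 19 genes of the other arms of the unfolded protein response and in 0.137% of all symbols. A match is a description of sequence and not a measured site.

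The members lie on 8 chromosomes (GRCm38, Gencode M21, protein-coding genes, positions of the whole gene). Atf4 is at chr15:80255184-80257541 on the plus strand, Chac1 at chr2:119351229-119354381 and Ddit3 at chr10:127290774-127296288, both also plus. On the minus strand are Atf5 at chr7:44812256-44816658, Nupr1 at chr7:126623249-126630861, Atf3 at chr1:191170296-191218039 and Trib3 at chr2:152337422-152344032. The minus strand also holds the 3 genes of amino acid synthesis, Asns at chr6:7675169-7693254, Psat1 at chr19:15904678-15947337 and Phgdh at chr3:98313170-98339990. Atf5 shares 82 exon bases, 4.11% of its own, with Nup62 and Il4i1 on the opposite strand, and Ddit3 shares 68 exon bases, 3.97%, with Mars. Strand use in the counting is not stated, so reads there are uncertain. The second Ddit3 entry (ENSMUSG00000116429.1, chr10:127290829-127293753) lies inside the first and shares all 105 of its exon bases with it. It had 0 reads in all 24 libraries, and whether reads over those bases were left out of Ddit3 as ambiguous was not tested.

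Per length, the members spanned a wide range of abundance. In ND+veh, Atf5 was the most abundant at 487 ± 114 FPKM (SD, n = 8, fragments scaled to transcript length and depth), followed by Atf4 at 73.2 ± 13.0 and Ddit3 at 17.4 ± 9.9. The ranges of these 3 did not overlap. Below them stood Trib3 (9.34 ± 11.2 FPKM), Atf3 (8.39 ± 4.09), Nupr1 (5.97 ± 3.97), Chac1 (4.47 ± 4.39), Psat1 (1.41 ± 0.89), Asns (0.831 ± 0.478) and Phgdh (0.265 ± 0.307). From Ddit3 downward the ranges of every pair of neighbours overlapped. By the ND+veh means, the enzymes of serine and asparagine synthesis were therefore the lowest of the set. They had 0 to 285 reads per library over all 24 libraries. The order did not hold in every library, as in HFD+veh replicate 6 Psat1 was at 5.06 FPKM and Nupr1 at 4.76.

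**Figure D1:**
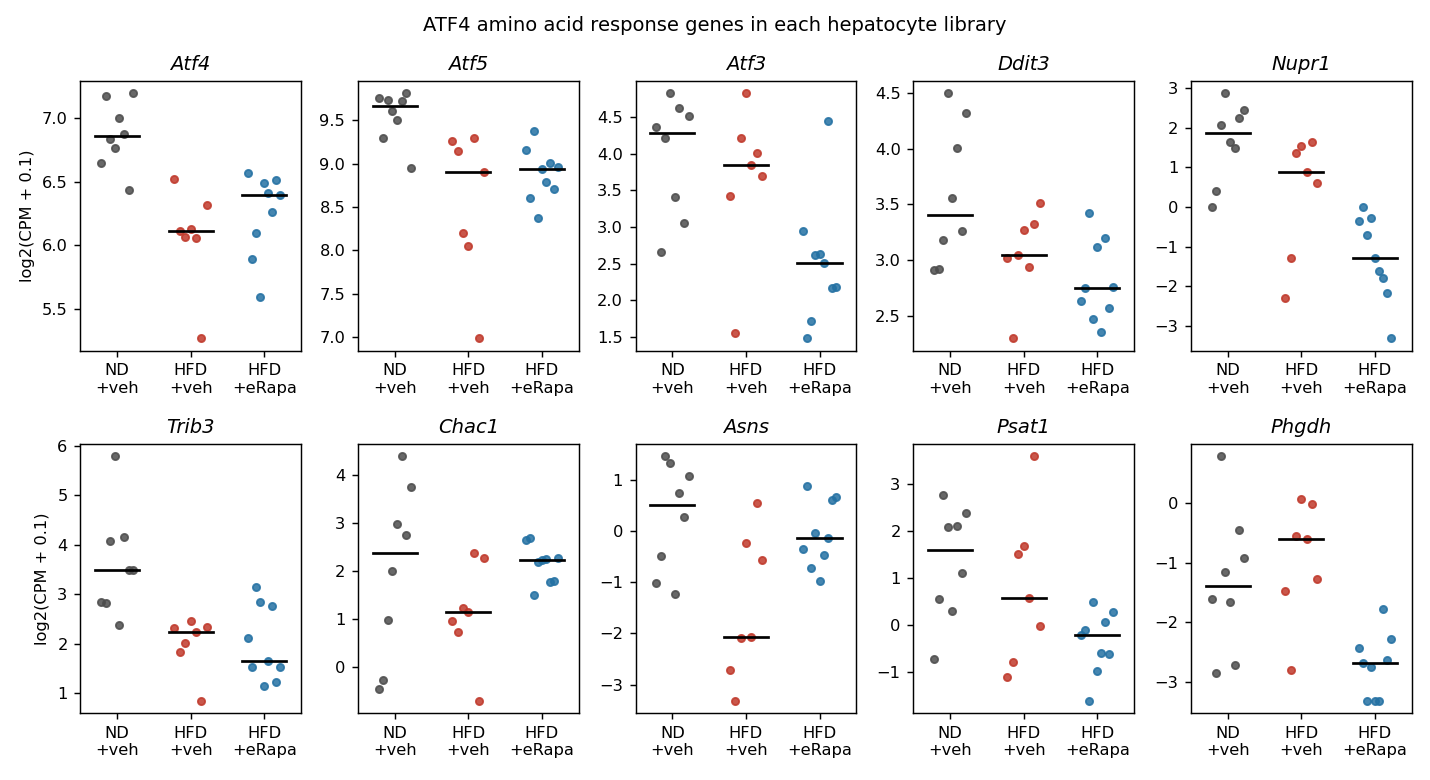
Each panel plots 1 member, with the 24 libraries as points on log2(CPM + 0.1), grouped as ND+veh (grey, n = 8), HFD+veh (red, n = 7) and HFD+eRapa (blue, n = 9), black lines as medians and a separate vertical axis per gene. Atf4 and Trib3 sit lower in both high-fat diet groups than in ND+veh, Nupr1 and Psat1 are lowest in HFD+eRapa, and the Asns median is lowest in HFD+veh.

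The first comparison asked how the high-fat diet changed these genes in old hepatocytes. Atf4 itself, the regulator Atf5, the kinase-like brake Trib3 and the asparagine synthetase Asns were lower under the high-fat diet with vehicle. All 9 tested members had estimates below 0, with a median log2 fold change of -0.84 beside 0.05 over all 13847 genes, and 4 of 9 passed an adjusted p under 0.05, all of them lower. In this comparison 25.9% of all tested genes passed, 16% as higher and 9.86% as lower. No member had groups that did not overlap, beside 2.44% of all tested genes. The test throughout is edgeR's quasi-likelihood test with Benjamini-Hochberg adjustment over all tested genes, log2 fold changes are given ± SE, and "rose", "fell" and "passed" refer to it.

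Atf4 ran from 86.2 CPM through a median of 116 to 146 in ND+veh, and from 38.5 through 69.3 to 91.8 in HFD+veh. All 7 HFD+veh libraries were below the ND+veh median, and only the highest of them reached into the ND+veh range. Atf4 fell by 0.78 ± 0.16 on the log2 scale, or 1.71-fold (adjusted p = 0.00217). Atf5, a relative of ATF4 that serves the mitochondrial stress response, was the most abundant member, at 496, 811 and 898 CPM (lowest, median and highest) in ND+veh and 127, 478 and 629.9 in HFD+veh. It fell by 0.84 ± 0.24, or 1.79-fold (adjusted p = 0.0163), with 7 of 7 HFD+veh libraries below the ND+veh median and the groups overlapping. HFD+veh replicate 6 was the lowest library for both genes, and without it the log2 fold changes were -0.71 (adjusted p = 0.00205) and -0.71 (adjusted p = 0.0204).

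Trib3, a pseudokinase induced by ATF4 that restrains ATF4 and AKT, fell as well. It ran from 5.1 through 11.1 to 55.6 CPM in ND+veh and from 1.69 through 4.58 to 5.37 in HFD+veh. The groups overlapped only between the lowest ND+veh library and the highest HFD+veh library. Trib3 fell by 1.99 ± 0.45, or 3.99-fold (adjusted p = 0.00423), and by 1.43 (adjusted p = 0.00656) without ND+veh replicate 4, its highest library. Chac1, which breaks down glutathione and is another late target of this program, had 0.624, 5.25 and 21 CPM in ND+veh against 0.506, 2.09 and 5.09 in HFD+veh. Its log2 fold change of -1.44 ± 0.57 did not pass (adjusted p = 0.0649), and the ND+veh range covered all HFD+veh libraries but the lowest.

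Asns, which makes asparagine from aspartate and glutamine, had few reads, from 6 through 25.5 to 76 in ND+veh and from 0 through 3 to 32 in HFD+veh. The HFD+veh median was therefore 3 reads, and 6 of 7 libraries lay below the ND+veh median. It fell by 1.67 ± 0.62, or 3.18-fold, at the edge of the threshold (adjusted p = 0.0496), and the call was lost under 24 of the 34 alternatives run. HFD+veh replicate 6 was its highest HFD+veh library, and without it the log2 fold change was -2.34 (adjusted p = 0.0168). Psat1, the second enzyme of serine synthesis, had a log2 fold change of -0.07 ± 0.60 (adjusted p = 0.939). Its HFD+veh libraries ran from 0.365 through 1.39 to 12 CPM, the highest being replicate 6, and without that library the log2 fold change was -1.12 (adjusted p = 0.142).

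The other stress regulators did not pass in this comparison. Ddit3, which encodes the pro-apoptotic factor CHOP, had a log2 fold change of -0.61 ± 0.24 (adjusted p = 0.0612). For Nupr1, a small chromatin protein induced by stress, it was -1.10 ± 0.58 (adjusted p = 0.16), with 7 of 7 HFD+veh libraries below the ND+veh median. For Atf3, an early stress factor, it was -0.24 ± 0.43 (adjusted p = 0.708). The summed macrophage markers had a higher median in HFD+veh than in ND+veh, at 2785 against 287 CPM. HFD+veh replicates 1 and 2, at 189 and 197 CPM, were nevertheless below the ND+veh median. With an immune marker score in the model, Atf4 (log2 fold change -0.64, adjusted p = 0.0127), Trib3 (-2.29, adjusted p = 0.00228) and Asns (-2.44, adjusted p = 0.0168) still passed. Atf5 no longer did (-0.65, adjusted p = 0.105), and Nupr1, Ddit3 and Chac1 passed as lower (-2.75, -0.88 and -1.79, adjusted p = 0.0003, 0.0149 and 0.0406).

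The second comparison asked what rapamycin changed on the high-fat diet. Atf4, Atf5 and Trib3 did not pass between HFD+eRapa and HFD+veh, whereas Nupr1, Psat1 and Atf3 fell. These 3 of 9 tested members passed, beside 32% of all tested genes, 10.9% as higher and 21.1% as lower. Groups that did not overlap were seen for none of the 9 and for 2.59% of all tested genes. The median log2 fold change of the 9 was 0.10 beside -0.04 over all genes. This comparison shares the HFD+veh libraries with the first, so the values of both are set side by side and not related to each other.

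Atf4 had 48.1, 84.1 and 94.6 CPM in HFD+eRapa, a log2 fold change of 0.17 ± 0.16 from HFD+veh (adjusted p = 0.427). Atf5 had 332, 492 and 665 CPM, with 0.18 ± 0.23 (adjusted p = 0.593), and Trib3 2.1, 3.04 and 8.77 CPM, with 0.10 ± 0.43 (adjusted p = 0.881). The HFD+eRapa libraries of all 3 genes lay on both sides of the HFD+veh median. Ddit3 had 5.01, 6.6 and 10.6 CPM against 4.8, 8.16 and 11.3, with -0.25 ± 0.23 (adjusted p = 0.427).

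Nupr1 had 0, 0.308 and 0.894 CPM in HFD+eRapa against 0.104, 1.76 and 3.04 in HFD+veh. All 9 HFD+eRapa libraries were below the HFD+veh median, and 2 HFD+veh libraries, replicates 1 and 2, lay within the HFD+eRapa range. It fell by 2.05 ± 0.59, or 4.13-fold (adjusted p = 0.0112). Psat1 had 0.226, 0.772 and 1.3 CPM in HFD+eRapa. All 9 libraries were below the HFD+veh median of 1.39, and the gene fell by 2.00 ± 0.60, or 3.99-fold (adjusted p = 0.0143). That call rested on HFD+veh replicate 6, without which the log2 fold change was -0.96 (adjusted p = 0.179). Atf3 had 2.68, 5.57 and 21.8 CPM in HFD+eRapa against 2.82, 14.3 and 28.3 in HFD+veh. HFD+eRapa replicate 7 alone exceeded the HFD+veh median, and the fall of 1.10 ± 0.42, or 2.15-fold, stood at the threshold (adjusted p = 0.0491) and was lost under 27 of the 34 alternatives.

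Markers of other liver cells were lower in HFD+eRapa too, with stellate cell markers at a median summed 45.9 CPM in HFD+eRapa against 159 in HFD+veh and endothelial markers at 155 against 509. With a score of the endothelial and stellate cell markers in the model, the log2 fold changes of Nupr1, Psat1 and Atf3 were -0.05, 0.27 and -0.42 (adjusted p = 0.968, 0.866 and 0.717). With the immune score they were -0.39, -0.33 and -0.52 (adjusted p = 0.692, 0.824 and 0.602). In bulk libraries, fewer cells of a type and less RNA per cell cannot be told apart.

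Asns and Chac1 had estimates in the other direction. Asns had 0.41, 0.811 and 1.73 CPM in HFD+eRapa against 0, 0.139 and 1.35 in HFD+veh, and all 9 HFD+eRapa libraries exceeded the HFD+veh median. Its log2 fold change of 1.12 ± 0.61 did not pass (adjusted p = 0.164), but it was 1.78 (adjusted p = 0.0405) without HFD+veh replicate 6 and 2.46 (adjusted p = 0.0436) with the endothelial and stellate score. Chac1 had 2.72, 4.56 and 6.37 CPM in HFD+eRapa, again above the HFD+veh median in 9 of 9 libraries, with a log2 fold change of 0.80 ± 0.55 (adjusted p = 0.281).

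Last, high-fat diet with rapamycin was compared with normal diet. Here 6 of 9 tested members fell, beside 13.5% of all tested genes that passed, 6.93% as higher and 6.54% as lower, and all 9 estimates were below 0 with a median of -0.87 against -0.03 over all genes. ND+veh is shared with the first comparison and HFD+eRapa with the second. Atf4 fell by 0.61 ± 0.15, or 1.52-fold (adjusted p = 0.00705), and Trib3 by 1.90 ± 0.41, or 3.72-fold (adjusted p = 0.00296). All 9 HFD+eRapa libraries were below the ND+veh median for both genes. Atf4 and Trib3 were thus the members that fell on the high-fat diet both with vehicle and with rapamycin, and they passed in both comparisons under every one of the 34 alternatives.

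Nupr1 fell by 3.15 ± 0.59, or 8.87-fold (adjusted p = 0.000696), with 16 to 230 reads in ND+veh and 0 to 16 in HFD+eRapa. It was the only member whose groups did not overlap in CPM, although narrowly, at 0.908 CPM for the lowest ND+veh library and 0.894 for the highest HFD+eRapa library. Of all tested genes, 3.37% had groups that did not overlap here. In FPKM the Nupr1 groups did overlap, with ND+veh replicate 1 at 1.51 and HFD+eRapa replicate 4 at 1.70. Ddit3 fell by 0.87 ± 0.22 (adjusted p = 0.0104), Atf3 by 1.34 ± 0.41 (adjusted p = 0.0309) and Psat1 by 2.07 ± 0.59 (adjusted p = 0.0197). Without ND+veh replicate 4, the library with the highest Atf3, Ddit3 and Nupr1, Ddit3 and Nupr1 still passed (log2 fold changes -0.72 and -2.93, adjusted p = 0.0272 and 0.00171) and Atf3 did not (-1.22, adjusted p = 0.062). Stellate cell markers were lower here too, with 4 of 9 called, and with the endothelial and stellate score Ddit3, Atf3 and Psat1 no longer passed (-0.56, -0.99 and -0.95, adjusted p = 0.0694, 0.0823 and 0.154). Atf3 lost its call under 12 of the 34 alternatives. Atf5 was close to the threshold at -0.66 ± 0.23 (adjusted p = 0.0515). Asns (-0.55 ± 0.55, adjusted p = 0.585) and Chac1 (-0.64 ± 0.52, adjusted p = 0.481) did not pass.

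**Figure D2:**
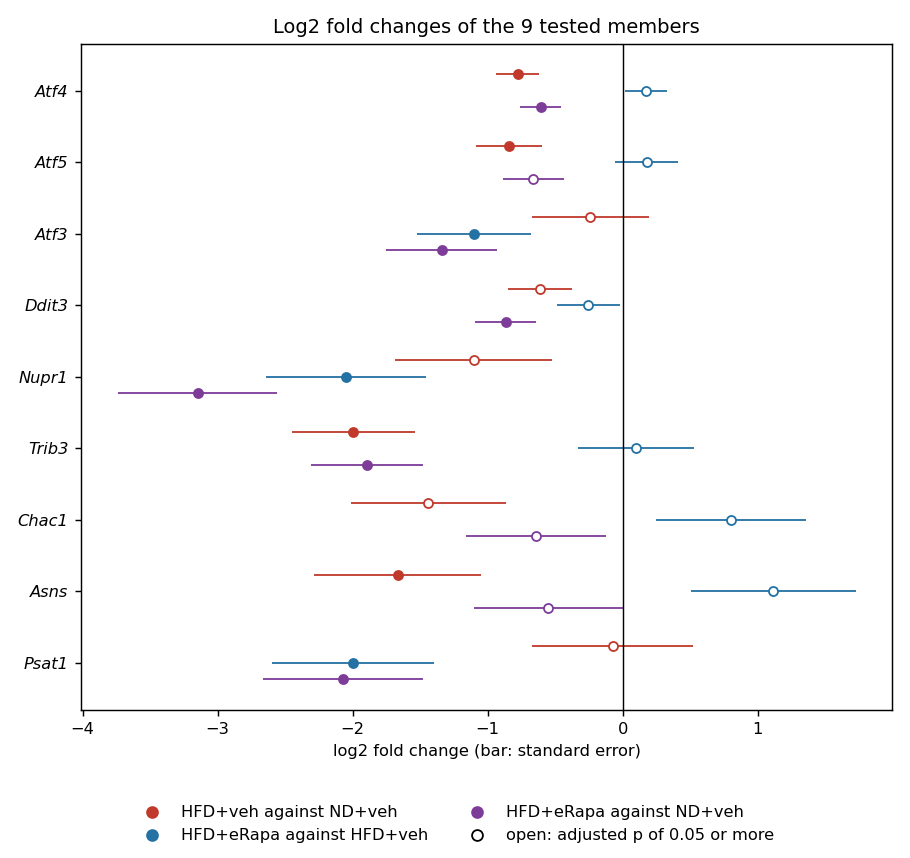
Log2 fold changes of the 9 tested members on the horizontal axis, as points with bars of 1 SE, for HFD+veh against ND+veh (red), HFD+eRapa against HFD+veh (blue) and HFD+eRapa against ND+veh (purple), filled where the adjusted p was under 0.05. Red and purple points all lie below 0, while blue points lie on both sides, from -2.05 for Nupr1 to 1.12 for Asns.

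Phgdh, the first enzyme of serine synthesis, had too few reads to pass the filter. ND+veh libraries held 1, 6.5 and 35 reads (lowest, median and highest), HFD+veh libraries 1, 12 and 24, and HFD+eRapa libraries 0, 1 and 4. Of the HFD+eRapa libraries, 3 had none, and the groups overlapped at 1 to 4 reads. In a fit without the filter, over 30483 genes, its log2 fold change was 0.16 for HFD+veh against ND+veh (adjusted p = 0.924), -2.87 for HFD+eRapa against HFD+veh (adjusted p = 0.00551) and -2.71 for HFD+eRapa against ND+veh (adjusted p = 0.0135). At these counts, its FPKM values did not follow its reads: the 4 reads of HFD+eRapa replicate 7 stand beside 1.20 FPKM, and the 35 reads of ND+veh replicate 3 beside 0.948. A pseudogene, Phgdh-ps1, is listed in the same tables and could share reads with it. Phgdh was not in the fits with a marker score, so the part of other liver cells in its falls was not tested.

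Other known ATF4 targets were compared from a list of 33 genes, 29 of them tested. On the high-fat diet with vehicle 10 passed, 7 lower and 3 higher, or 34.5% beside 25.9% of all tested genes. The median log2 fold change over the 29 was -0.31. Fgf21, the starvation and stress hormone of the liver, had 8.62, 31.4 and 129 CPM in ND+veh, 2.83, 7.8 and 12.1 in HFD+veh and 5.01, 8.97 and 12.8 in HFD+eRapa. It fell by 2.50 ± 0.47, or 5.68-fold, in HFD+veh (adjusted p = 0.00091) and by 2.35 ± 0.42, or 5.08-fold, in HFD+eRapa (adjusted p = 0.000514), both against ND+veh. Aldh1l2, a mitochondrial folate enzyme, was near absence on the high-fat diet, at 0 to 0.529 CPM in HFD+veh and 0 to 0.3 in HFD+eRapa against 1.22 to 2.37 in ND+veh. Its log2 fold changes of -2.82 ± 0.53 and -3.73 ± 0.53 passed (adjusted p = 0.00101 and 3.8e-05), and neither high-fat diet group overlapped ND+veh.

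Folate enzymes did not move as a block. Mthfd1l, another mitochondrial folate enzyme, was higher in every HFD+veh library (4.03 to 7.51 CPM) than in any ND+veh library (0.17 to 2.61), a log2 fold change of 2.04 ± 0.47 (adjusted p = 0.00417). For Mthfd2, of the same pathway, it was -0.31 ± 0.44 (adjusted p = 0.63), and for Shmt2, which feeds serine carbon into it, -0.18 ± 0.20 (adjusted p = 0.528). Mthfd2 passed as lower with the immune score (-1.28, adjusted p = 0.0288) and with the endothelial and stellate score (-0.96, adjusted p = 0.0257). Psph, the last enzyme of serine synthesis, fell by 0.42 ± 0.13 (adjusted p = 0.0218) in HFD+veh and by 0.54 ± 0.12 (adjusted p = 0.00352) in HFD+eRapa against ND+veh. Sesn2 and Ppp1r15a, inhibitors of mTORC1 and of eIF2 phosphorylation, had -0.25 and -0.56 in HFD+veh and did not pass (adjusted p = 0.49 and 0.105). Gdf15, a secreted stress hormone, had -0.80 ± 0.41 (adjusted p = 0.146), and fell by 1.14 ± 0.38 in HFD+eRapa against ND+veh (adjusted p = 0.0472), a call lost under 21 of the 34 alternatives.

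With rapamycin on the high-fat diet, 13 of the 29 passed against HFD+veh, 9 lower and 4 higher, or 44.8% beside 32% of all tested genes. The lower genes included the mTORC1 inhibitor Ddit4 and several carriers of amino acids. Ddit4 had 5.51, 11.3 and 16.1 CPM in HFD+veh and 1.61, 3.79 and 5.6 in HFD+eRapa. The ranges met only at their ends, and Ddit4 fell by 1.68 ± 0.33, or 3.20-fold (adjusted p = 0.000915), a call kept under all 34 alternatives. Slc7a5, the light chain of the large neutral amino acid carrier, had 0.461 to 1.48 CPM in HFD+eRapa and 3.65 to 5.45 in ND+veh, which did not overlap, for a log2 fold change of -2.24 ± 0.35 (adjusted p = 0.000121), and its partner Slc3a2 had -0.78 ± 0.14 (adjusted p = 0.000395). Against HFD+veh the log2 fold changes of these were -1.61 ± 0.36 and -0.71 ± 0.14 (adjusted p = 0.0024 and 0.00116). Slc3a2 was named after its values were seen.

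The largest falls against HFD+veh were those of Slc7a11, Slc7a1 and Jdp2 (log2 fold changes -3.14, -2.44 and -2.37, adjusted p = 0.043, 0.011 and 0.0039), which encode the cystine carrier, a cationic amino acid carrier and a repressor that partners ATF factors. With the endothelial and stellate score these were 1.18, 0.53 and -0.52, and only 1 of the 29 passed, against 13. Slc7a11 ranged from 0 to 6.64 CPM over the libraries, and its call was kept under only 15 of the 33 alternatives that gave it a value. Shmt2 was higher with rapamycin, at 0.66 ± 0.20 (adjusted p = 0.015), above the HFD+veh median in 9 of 9 libraries, and did not pass with either marker score. Fgf21 (0.16 ± 0.43, adjusted p = 0.805), Psph (-0.12 ± 0.12, adjusted p = 0.492), Mthfd2 (-0.54 ± 0.43, adjusted p = 0.35), Sesn2 (-0.27 ± 0.25, adjusted p = 0.428) and Gdf15 (-0.34 ± 0.39, adjusted p = 0.535) did not pass. Against ND+veh, 9 of the 29 passed, 8 lower and 1 higher, or 31% beside 13.5% of all tested genes.

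**Figure D3:**
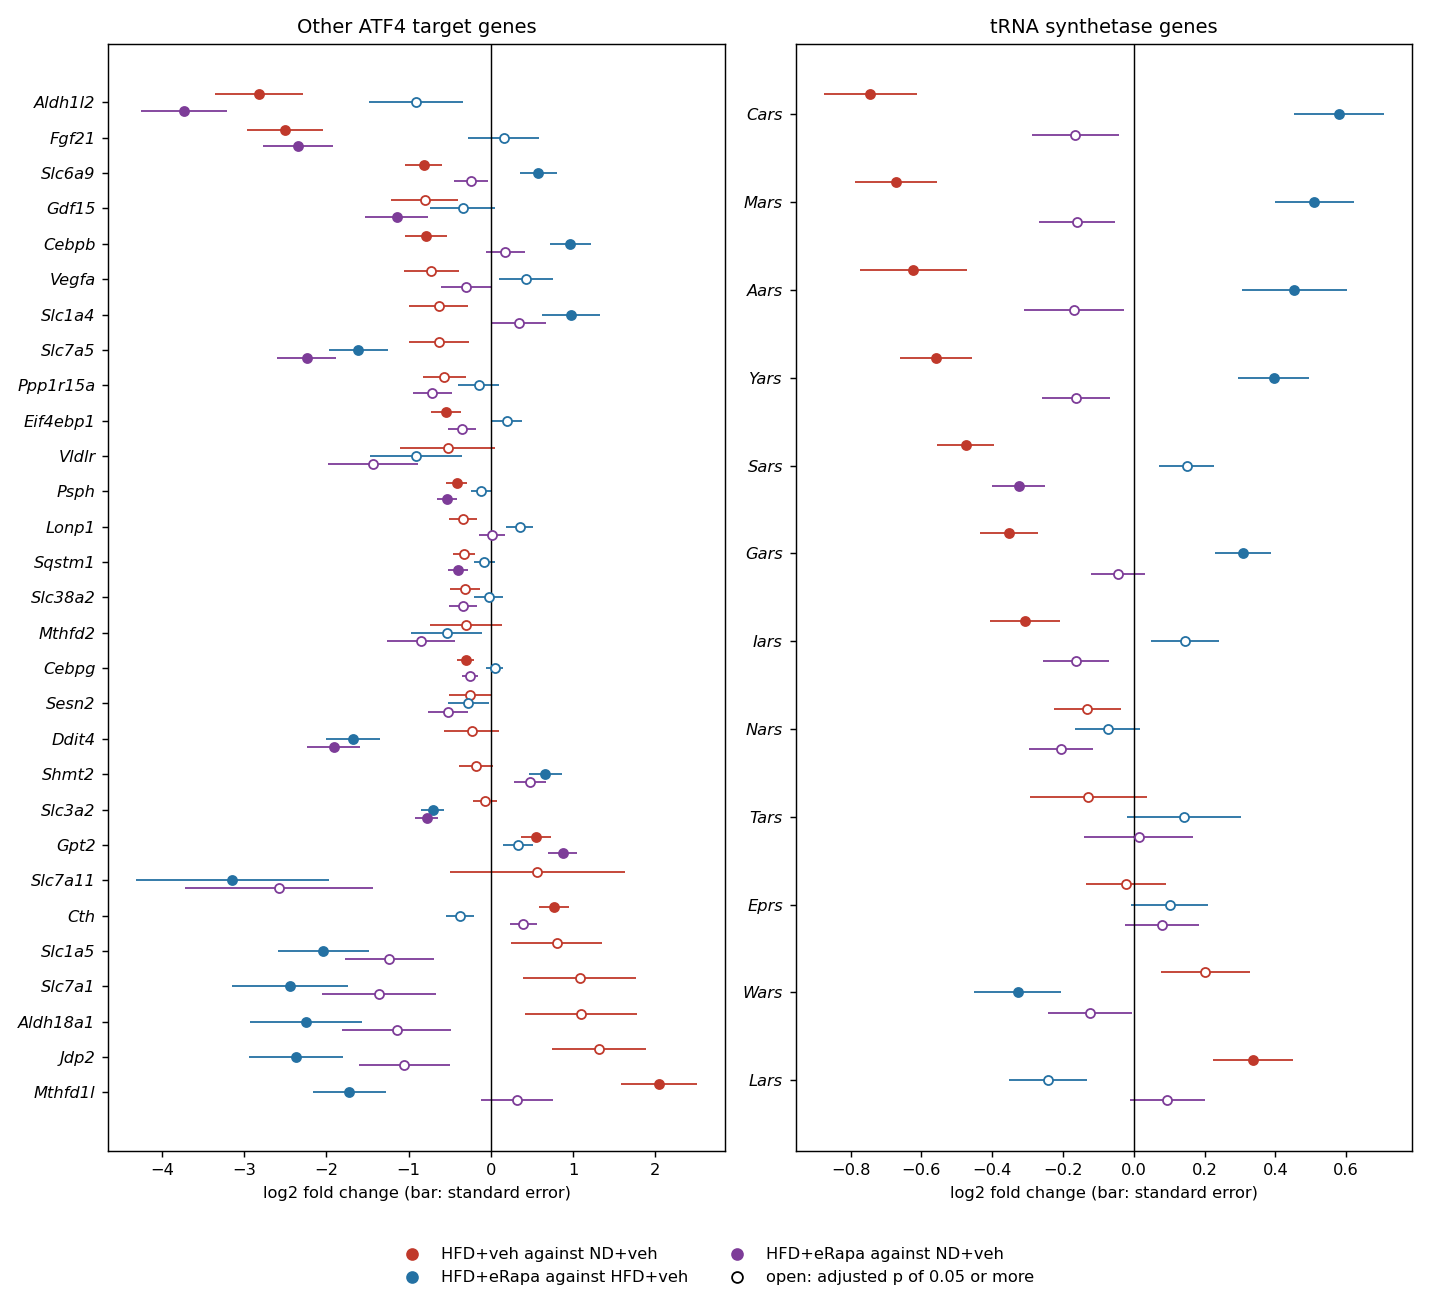
Log2 fold changes (points, bars of 1 SE, filled at an adjusted p under 0.05) of 29 other ATF4 targets on the left and 12 tRNA synthetases on the right, for HFD+veh against ND+veh (red), HFD+eRapa against HFD+veh (blue) and HFD+eRapa against ND+veh (purple), ordered by the red values on separate horizontal scales. Fgf21 and Aldh1l2 have red and purple points at -2.35 or lower, while Cars, Mars, Aars and Yars have red points at -0.56 or lower, blue points at 0.40 or higher and purple points between.

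The genes that charge tRNA with amino acids were taken as a separate list. All 12 cytosolic tRNA synthetases on the list were tested. Between HFD+veh and ND+veh 8 passed, 7 lower and 1 higher, or 66.7% beside 25.9% of all tested genes. Between HFD+eRapa and HFD+veh 6 passed, 5 higher and 1 lower, or 50% beside 32%. Against ND+veh, 1 passed in HFD+eRapa, or 8.33% beside 13.5%. The medians over the 12 were -0.33, 0.15 and -0.16 in that order. With ND+veh replicate 4 and HFD+veh replicate 6 both left out, the counts were 7, 4 and 1.

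Cars, the cysteinyl-tRNA synthetase, had 28.4, 33.7 and 49.2 CPM in ND+veh, 14, 22.9 and 27 in HFD+veh and 28.5, 31.7 and 38.1 in HFD+eRapa. The HFD+veh libraries lay below every library of both other groups. Cars fell by 0.74 ± 0.13 (adjusted p = 0.00057) and rose by 0.58 ± 0.13 with rapamycin (adjusted p = 0.00227). Mars, for methionine, fell by 0.67 ± 0.12 (adjusted p = 0.000474) and rose by 0.51 ± 0.11 (adjusted p = 0.00223), although it shares exon bases with Ddit3. Aars, for alanine, fell by 0.62 ± 0.15 (adjusted p = 0.00633) and rose by 0.45 ± 0.15 (adjusted p = 0.0219). Yars and Gars, named after their values were seen, fell by 0.56 ± 0.10 and 0.35 ± 0.08 and rose by 0.40 ± 0.10 and 0.31 ± 0.08 (adjusted p = 0.000766 and 0.00458, then 0.00514 and 0.00561). Sars, for serine, fell by 0.32 ± 0.07 in HFD+eRapa against ND+veh (adjusted p = 0.00432).

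The falls of Cars and Mars on the high-fat diet passed under all 34 alternatives. With the endothelial and stellate score no synthetase passed against HFD+veh in edgeR (3 of 12 at an unadjusted p under 0.05), and with the immune score 1 did, Cars. Under the former score the log2 fold change of Cars was 0.51 (adjusted p = 0.0578), that of Mars 0.27 (adjusted p = 0.15) and that of Aars 0.12 (adjusted p = 0.649). Promoter windows were matched for 8 of the 12 synthetases, and 5 of those 8 held TGATGNAA. These 5 were Yars, Gars, Aars, Iars and Tars. The windows of Yars and Gars, picked after their values were seen, are shown beside that of Fgf21, in the same layout as for the members.
Yars, chr4:129189895-129189924, plus strand: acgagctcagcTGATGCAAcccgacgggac
Gars, chr6:55037960-55037989, plus strand: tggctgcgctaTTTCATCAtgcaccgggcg
Fgf21, chr7:45615611-45615640, minus strand: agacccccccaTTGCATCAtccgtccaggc
Of the other ATF4 targets, 6 of 27 with a window held the motif, Fgf21 among them. Genes with these letters included Fgf21, which did not pass between HFD+eRapa and HFD+veh, as well as Yars, Gars and Aars, which rose. Iars and Tars held them too and were not among the synthetases that passed as higher there. A link between the letters and the changes was not tested.

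Upstream of ATF4, the 4 eIF2 kinases did not move together. Eif2ak3, which encodes PERK, the sensor of unfolded protein, had 18.1, 26.2 and 41.9 CPM in ND+veh and 9.91, 14 and 20.1 in HFD+veh. It fell by 0.86 ± 0.19 (adjusted p = 0.00317), kept under all 34 alternatives, and by 0.52 ± 0.17 in HFD+eRapa against ND+veh (adjusted p = 0.0472), lost under 20 of them. Eif2ak2, which encodes PKR and is induced by interferon, rose by 1.32 ± 0.25, or 2.49-fold, on the high-fat diet (adjusted p = 0.00115) and fell by 1.00 ± 0.24 with rapamycin (adjusted p = 0.00414). The rapamycin call was lost with either marker score. Eif2ak4, the amino acid sensor GCN2, had 0.15 ± 0.10 on the high-fat diet (adjusted p = 0.276) and fell by 0.33 ± 0.10 with rapamycin (adjusted p = 0.0156). Eif2ak1, which encodes HRI, did not pass (-0.15 ± 0.07 and 0.10 ± 0.07, adjusted p = 0.125 and 0.321).

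Of 17 genes of this upstream list, 6 passed on the high-fat diet (2 higher, 4 lower), or 35.3% beside 25.9% of all tested genes. Between HFD+eRapa and HFD+veh 7 passed (4 higher, 3 lower), or 41.2% beside 32%. Between HFD+eRapa and ND+veh 2 passed, or 11.8% beside 13.5%. Without ND+veh replicate 4 and HFD+veh replicate 6 the first count was 3. Eif2b4, a subunit of the exchange factor that eIF2 phosphorylation inhibits, fell by 0.64 ± 0.15 (adjusted p = 0.00598) and rose with rapamycin by 0.59 ± 0.15 (adjusted p = 0.00543). The rise did not pass with the immune score (0.29, adjusted p = 0.172) or the endothelial and stellate score (0.20, adjusted p = 0.332). Impact, an inhibitor of GCN2 activation, fell by 0.75 ± 0.24 with rapamycin (adjusted p = 0.0191). Oma1, the mitochondrial protease that relays stress to HRI, rose by 0.34 ± 0.11 in HFD+eRapa against ND+veh (adjusted p = 0.0407), a call lost under 22 of the 34 alternatives. Eif2ak4 and Impact lost theirs under 8 and 9, with HFD+veh replicate 6 left out among them. These measure transcripts, and neither kinase activity nor ATF4 protein was measured in the files used here.

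Genes of the other arms of the unfolded protein response, IRE1-XBP1 and ATF6, were read in the same way. Of 22 tested, 11 passed between HFD+veh and ND+veh, all lower, beside 25.9% of all tested genes and 9.86% as lower. All 22 estimates were below 0, with a median of -0.45 beside 0.05 over all genes, and 11 did not pass. Hyou1, a chaperone of the endoplasmic reticulum, fell by 1.13 ± 0.26 (adjusted p = 0.0045), Syvn1, a ubiquitin ligase that disposes of misfolded protein, by 1.12 ± 0.27 (adjusted p = 0.00595) and Creld2, an ER-resident folding factor, by 1.04 ± 0.33 (adjusted p = 0.0246). The count was 7 without ND+veh replicate 4 and HFD+veh replicate 6, 2 with the immune score and 6 with the endothelial and stellate score. In this comparison Creld2 lost its call under 12 of the 34 alternatives and Syvn1 under 1, while Hyou1 kept its call under all 34. Between HFD+eRapa and HFD+veh 2 passed, both higher, or 9.09% beside 32% of all tested genes. They were Creb3l3 (0.61 ± 0.23, adjusted p = 0.041) and Xbp1 (0.43 ± 0.15, adjusted p = 0.0311), 2 liver stress transcription factors. Neither passed with both libraries left out or with either marker score. Creb3l3 lost its call under 18 and Xbp1 under 13 of the 34 alternatives. Against ND+veh 5 fell in HFD+eRapa, or 22.7% beside 6.54% of all tested genes as lower. Among them were Derl3 (-2.53 ± 0.66, adjusted p = 0.0106), Sdf2l1 (-1.55 ± 0.32, adjusted p = 0.00171) and Hyou1 (-0.73 ± 0.24, adjusted p = 0.043), the last lost under 17 of the 34 alternatives.

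Genes induced within minutes of handling or isolation were examined because Atf3 is itself one of them. Of 21 immediate-early genes tested, 2, or 9.52% beside 25.9% of all tested genes, passed on the high-fat diet, Egr2 higher (2.33 ± 0.58, adjusted p = 0.00737) and Maff lower (-1.06 ± 0.38, adjusted p = 0.0439). Maff lost its call under 17 of the 34 alternatives. Between HFD+eRapa and HFD+veh 7 passed, or 33.3% beside 32% of all tested genes, 6 lower and 1 higher, with Egr2 (-3.35 ± 0.60), Gadd45b (-1.65 ± 0.58) and Klf4 (-1.47 ± 0.49) the largest falls (adjusted p = 0.000454, 0.0326 and 0.0256). The endothelial and stellate markers fell in the same comparison, and with their score these were -1.45, -0.05 and 0.17 (adjusted p = 0.108, 0.979 and 0.878). Gadd45b lost its call under 16 of the 34 alternatives. Against ND+veh 2 passed in HFD+eRapa, or 9.52% beside 13.5% of all tested genes. Both were lower, Ier5 (-1.01 ± 0.31, adjusted p = 0.0281) and Ier2 (-0.96 ± 0.31, adjusted p = 0.0406). Ier5 lost its call under 10 and Ier2 under 12 of the 34 alternatives. The part of the immediate-early genes in the fall of Atf3 was not tested.

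Within groups the members did not vary as a unit. After group means were subtracted from log2 CPM, the 36 pairs of tested members had Pearson's r from -0.71 to 0.81 over the 24 libraries, with a median of 0.23, 4 pairs above 0.5 and 10 below 0. The highest was Asns with Psat1 (r = 0.81) and the lowest Atf5 with Psat1 (r = -0.71). Atf4 had r of 0.45 with Atf5, -0.06 with Trib3, -0.32 with Asns and -0.43 with Psat1. Without the 2 libraries farthest from the Atf4 median, these were -0.06, -0.20, -0.13 and -0.10, so the larger of them rested on few libraries. With Nupr1, the member whose r with Atf4 was farthest from 0, it was -0.47, and -0.37 without the same 2 libraries. These values share the same libraries and their depth and are given as a description.

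**Figure D4:**
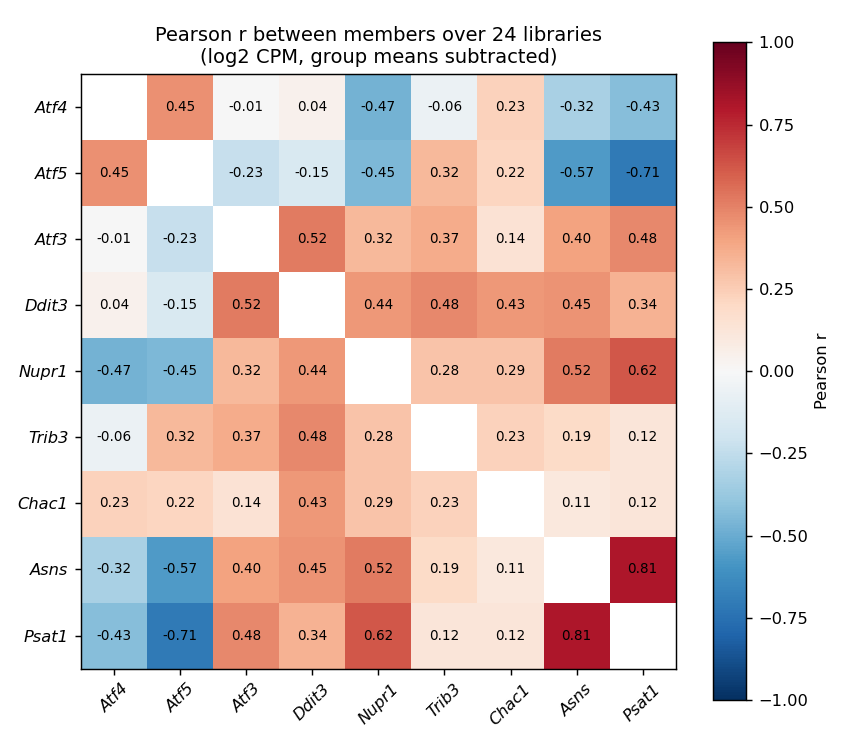
Pearson's r (colour and number) between each pair of the 9 tested members over 24 libraries, from log2 CPM with group means subtracted. Asns and Psat1 form the strongest positive pair at 0.81, and Atf5 is negative with Asns (-0.57), Psat1 (-0.71) and Nupr1 (-0.45).

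Among 10314 other genes with a mean log2 CPM of at least 1, the gene most like each member by the same measure over the same 24 libraries was Foxa2 for Atf4 (r = 0.82), Wdtc1 for Atf5 (0.93), Grn for Atf3 (0.81) and Psmb8 for Ddit3 (0.79). It was Hpse for Nupr1 (0.90), Mvp for Trib3 (0.84), Ube2h for Chac1 (0.81), Cep70 for Asns (0.81) and Mthfd2 for Psat1 (0.91). Mthfd2 was on the list of other ATF4 targets, and the other 8 were on none of the lists.

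Nupr1 and Psat1 had the highest correlations with the macrophage, lymphocyte, neutrophil, endothelial and stellate cell markers, but not with the cholangiocyte markers. With group means subtracted, Nupr1 had r of 0.80 with the summed macrophage markers, 0.84 with the endothelial and 0.85 with the stellate cell markers, and Psat1 had 0.60, 0.70 and 0.77. Asns had 0.48, 0.54 and 0.60 with these sums, and Atf3, Ddit3, Trib3 and Chac1 had 0.24 to 0.50 with them. Atf4 and Atf5 had negative values with them, from -0.45 to -0.50 and from -0.42 to -0.64. With the cholangiocyte markers Atf3 was highest (0.68), then Psat1 (0.66) and Nupr1 (0.64). Without the 2 libraries farthest out in those markers, they had 0.48, 0.64 and 0.58. With the hepatocyte markers the members ran from -0.55 (Atf3) to 0.27 (Chac1). The part of other liver cells in the members' results was not tested beyond the models with marker scores. With the endothelial and stellate score in the model Nupr1 was lower than in ND+veh both in HFD+veh (log2 fold change -2.12, adjusted p = 0.000242) and in HFD+eRapa (-2.17, adjusted p = 0.000171). With the same score Atf4 was lower than in ND+veh in both groups too, at -0.70 (adjusted p = 0.00161) and -0.77 (adjusted p = 0.00063).

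**Figure D5:**
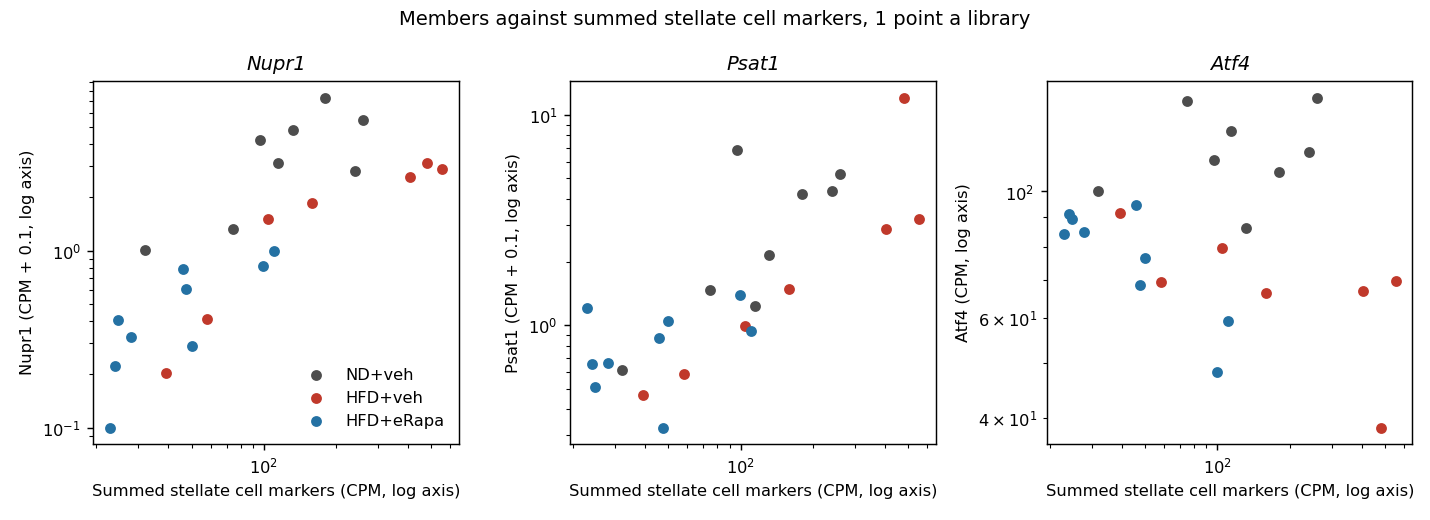
Nupr1 and Psat1 (CPM + 0.1) and Atf4 (CPM) on log axes against the summed stellate cell markers (CPM, log axis), 1 point per library, for ND+veh (grey), HFD+veh (red) and HFD+eRapa (blue). Over all 24 libraries with group means subtracted, Nupr1, Psat1 and Atf4 have r of 0.85, 0.77 and -0.485 with the markers. HFD+eRapa libraries fill the low end of the marker scale. Atf4 in ND+veh stays at 86.2 CPM or more over the marker sums of that group, 32 to 259.7 CPM.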

How the data were processed

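The deposited gene counts are raw whole numbers, made by the authors with STAR in repeated-pass mode on mm10 with Gencode M23, SAMtools 1.1.0 and HTSeq 0.11.2, and the deposited FPKM values are the authors' Cufflinks output for each library, without pooling. Depth was 17739252 to 25945134 counts, and no pair of replicates agreed within sampling noise (chi-square per degree of freedom of at least 12.71). Groups came from the sample labels, and all libraries carry the same batch label. Counts were tested with edgeR 4.0.16 (R 4.3.3): filterByExpr by group, TMM, 1 robust quasi-likelihood fit over all 24 libraries and Benjamini-Hochberg adjustment over 13847 genes, called under 0.05. CPM used TMM-scaled library sizes of the tested genes, and log2 CPM a prior count of 2. Each p-value tests a difference between groups against the spread between animals, estimated over all 24 libraries and moderated across genes.

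The alternatives were DESeq2 1.42.0, DESeq2 size factors, no filter, a replicate block, 2-group fits, an immune marker score, limma 3.58.1 on log2(FPKM + 1) or log2(FPKM + 0.1), and leaving out each library. A score of endothelial and stellate markers and leaving out ND+veh replicate 4 with HFD+veh replicate 6 were added after seeing the data. Marker scores are mean z-scores entered as a covariate. Scripts were tested on simulated data. Members and lists were chosen with earlier results of these data known. Named were all members, 12 genes fixed by role, up to 3 called genes per other list with the largest change in each comparison, and the gene most like each member. Gene positions are from Gencode M21 and promoter windows from RefSeq. Protein sequences were not used here. Strand use in counting is not given in the sources used here. The promoter sequence of 1 listed gene is not reported here.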

Additional observations from a re-analysis of the deposited data

Results flagged for a closer look

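Single libraries stood far from the rest of their group in 6 of 48 groups of values examined, where chance flags about 5% of such groups. In HFD+veh replicate 6, Atf4 was at 5.27 log2 CPM, below the 6.06 to 6.52 of the other 6 libraries, and Trib3 at 0.83, below 1.84 to 2.45. Atf3 was at 1.54 in HFD+veh replicate 2, below 3.42 to 4.83, and at 4.45 in HFD+eRapa replicate 7, above 1.47 to 2.95. In ND+veh replicate 4 the summed hepatocyte markers were at 15.99 log2 CPM, below 16.87 to 17.39, and the summed cholangiocyte markers at 4.42, above 2.57 to 3.23.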

How the results depend on the processing

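Of all genes, 3584 passed between HFD+veh and ND+veh (2218 higher, 1366 lower), against 2333 in the 2-group fit, 1191 with the immune score (576 higher, 615 lower), 2340 with limma on log2(FPKM + 0.1) (1158 and 1182), 2300 without ND+veh replicate 4 and HFD+veh replicate 6 (1179 and 1121), and 2106 (without HFD+veh replicate 6) to 4479 (without HFD+veh replicate 2) with 1 library left out. Between HFD+eRapa and HFD+veh 4432 passed, against 2532 with the replicate block, 948 with the immune score and 780 with the endothelial and stellate score. Against ND+veh 1865 passed (959 higher, 906 lower), against 3299 with the latter score, and 519 higher with 925 lower by limma on log2(FPKM + 1).

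Of the members, 3 passed between HFD+eRapa and HFD+veh, and 1, Asns, with the endothelial and stellate score. In edgeR 0 passed with the replicate block (3 at an unadjusted p under 0.05) and 0 with the immune score (2 unadjusted), and by limma 0 with either offset to FPKM (3 unadjusted in each). Of the other targets 13 passed, 7 with the block, 1 with the immune score and 1 with the endothelial and stellate score. With 1 library left out, members called numbered 3 to 6, 2 to 4 and 5 to 8 in the 3 comparisons. The block joins libraries by number. Deviations of same-numbered libraries had a mean correlation of 0.316 between HFD+veh and ND+veh, with 5 of 7 pairs over 0.1 and the lowest at -0.36, and of -0.245 and -0.203 in the comparisons with HFD+eRapa, with 2 pairs over 0.1 in each, so the numbers were not taken to pair animals. With the block, Ddit3 and Psat1 did not pass between HFD+eRapa and ND+veh (edgeR, adjusted p = 0.0509 and 0.0672).

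Directions turned as follows (log2 fold changes), in no case with an adjusted p under 0.05 after the turn. Between HFD+veh and ND+veh, Shmt2 was 0.13 with the immune score, and with 1 library left out Psat1 ran from -1.12 to 0.18 and Ddit4 from -0.35 to 0.20. Between HFD+eRapa and HFD+veh, the immune score gave Atf4 -0.023, Atf5 -0.046, Ddit3 0.14, Mthfd2 0.80, Sesn2 0.067 and Slc7a11 0.078. The endothelial and stellate score gave Atf4 -0.070, Atf5 -0.16, Ddit3 0.17, Psat1 0.27, Ppp1r15a 0.036, Mthfd2 1.07, Sesn2 0.20, Gdf15 0.056, Slc7a11 1.18, Slc7a1 0.53 and Klf4 0.17. Trib3 was -0.033 and -0.086 by limma with an offset of 1 and 0.1, and -0.088 to 0.20 with 1 library left out. Between HFD+eRapa and ND+veh the endothelial and stellate score gave Asns 0.20, Chac1 0.12 and Mthfd2 0.11. The causes were not tested. Depth limits Asns, Psat1, Nupr1, Chac1 and Phgdh, each with libraries at 12 reads or fewer.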

Other observations

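Slc7a5 is listed at 0 FPKM in all 24 libraries, although the count table gives it 8 to 160 reads per library. The same holds for 91 of the 13847 tested genes, so the FPKM table cannot be used for them, and Slc7a5 was the single gene affected among the pathway lists.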
